A study of Mus musculus with 6 samples.

Results

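The 41 genes described here encode proteins that build ribosomes in the nucleolus. They were taken by symbol from the 53700 gene rows of a table of RNA sequencing counts of mouse colon tumours, and all 41 were in the table and passed the filter on low counts. By role they were 7 genes of RNA polymerase I transcription, 8 of snoRNPs, 11 of small subunit assembly, 10 of large subunit assembly and 5 abundant or multifunctional nucleolar proteins. The lowest count of any of them in any library was 771.

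Within the nucleolus RNA polymerase I transcribes the ribosomal RNA precursor. Small nucleolar ribonucleoproteins (snoRNPs) modify that precursor, and large sets of assembly factors fold and cleave it into the small and the large ribosomal subunit. The output of this machinery follows cell growth, its genes are known targets of the transcription factor MYC, and MYC is itself a known target of Wnt signalling in the intestinal epithelium.

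The tumours came from 2 groups of 3 mice, and both groups received 100 mg/kg doxycycline in their food. The APC-WT mice had been on doxycycline for 10 days, kept their endogenous Tcf7l2 and were cachectic, the state of wasting that accompanies advanced cancer. The APC-KI mice had been on doxycycline for 6 weeks, carried the system by which doxycycline represses Tcf7l2 throughout the body, and had recovered. Tcf7l2 encodes a transcription factor that works with beta-catenin at Wnt targets. Genotype, time on doxycycline and state of wasting differ together between the groups and cannot be told apart, and no group without doxycycline was analysed here.

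The libraries held between 51777342 and 63921108 counts. Tcf7l2 stood at 44.1, 43.8 and 35.6 CPM (counts per 1000000 counts of the library, after scaling) in APC-WT tumours, against 4.48, 6.90 and 5.34 CPM in APC-KI tumours, which matches the labels. APC-WT replicates 1 and 2 held 19164 and 16055 counts of 4 Y-linked genes and the other 4 libraries held 0, so that sex is uneven between the groups. Epithelial markers were abundant in every library, with a summed level of 8522 to 9620.1 CPM in APC-WT and 10198 to 11833 CPM in APC-KI tumours. Of 10 epithelial markers 4 were higher and 1 lower in APC-KI. In APC-KI tumours 6 of 6 smooth muscle markers (126 to 381 against 838 to 1419.9 CPM), 6 of 8 B and plasma cell markers (844 to 1311 against 5794 to 14364 CPM), 3 of 4 T cell, 1 of 5 fibroblast, 1 of 4 endothelial and 1 of 4 macrophage markers were higher. Per the labels, tumours were pinched off the muscle layer. All 5 mast cell markers were lower (122 to 827 against 4.96 to 14.7 CPM), and no marker of any of these lists was at 0 in any library.

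In the tumours of recovered APC-KI mice many of the nucleolar genes fell by small amounts and none rose. Of the 41 genes 19 fell and 0 rose at an adjusted p under 0.05 in edgeR's quasi-likelihood test, against a background of 7.63% of all 19127 tested genes called lower and 12.5% called higher. At an unadjusted p under 0.05 the numbers were 26 lower and 0 higher, where 16.7% of all genes were lower and 21.2% higher. DESeq2 called 26 lower and 0 higher (12.5% of all genes lower), and limma-voom 19 lower and 0 higher (7.60% lower). The log2 change was negative for 40 of 41 genes, which held for 51.5% of all genes. The median log2 change was −0.27, a level 1.20-fold lower, and that of all genes was −0.02. Without regard to sign the median log2 change was 0.27 for these genes and 0.31 for all genes. The median standard error (SE) was 0.079 and 0.186. How far the smaller SE raised the shares called and the shares without overlap was not tested. In 29 of the 41 genes every APC-KI tumour was below every APC-WT tumour, against 21.5% of all genes. The falls that passed lay between 1.20-fold and 1.49-fold.

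**Figure D1:**
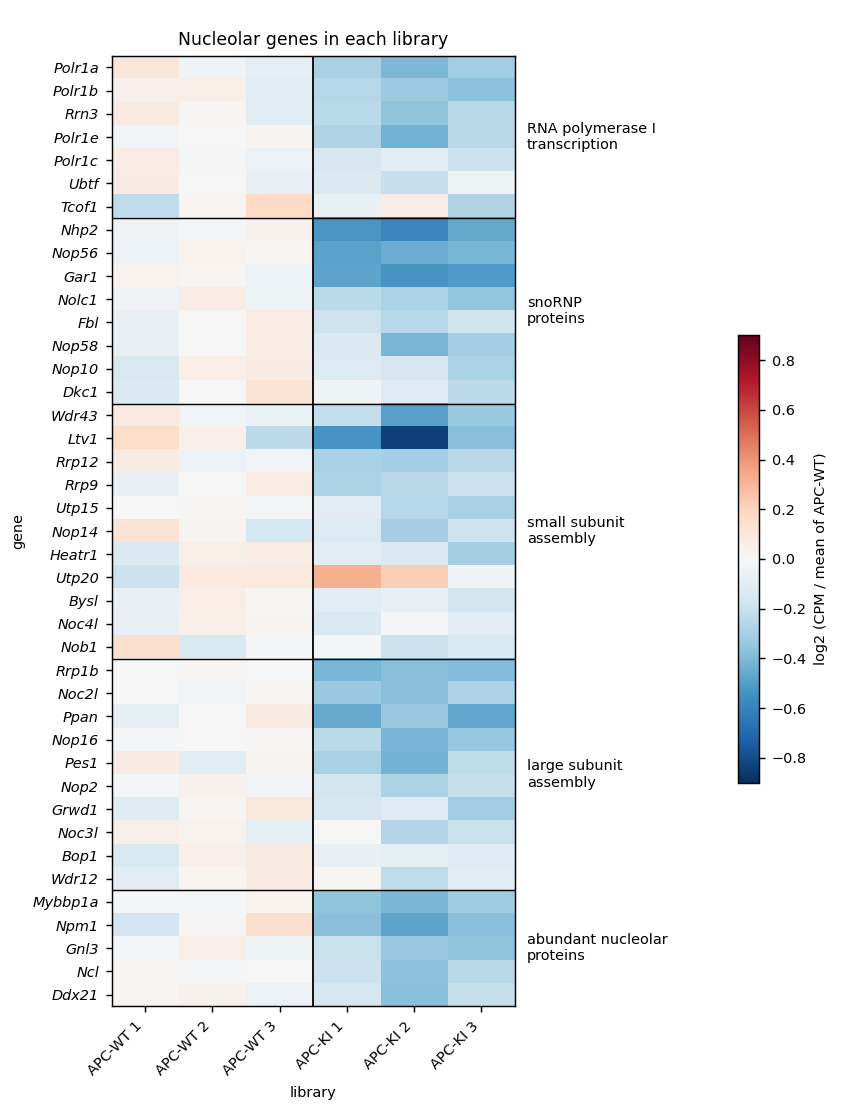
Level of the 41 nucleolar genes (rows, grouped by role and ordered by p) in each of the 6 libraries (columns), as log2 of CPM over the mean of the 3 APC-WT libraries; blue is below that mean and red above it. The 3 APC-KI columns are blue for nearly all genes, Nhp2, Gar1 and Nop56 are low in all 3, and Utp20 is the exception.

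The genes summed to 4417, 4526 and 4576 CPM in APC-WT tumours 1 to 3 and to 3826, 3554 and 3719 CPM in APC-KI tumours 1 to 3. The groups did not overlap, and the lowest sum was that of APC-KI replicate 2, which was also the lowest of the 6 libraries for 23 of the 41 genes. APC-WT replicate 3 was the highest of the 6 for 17 genes, APC-WT replicate 1 for 13 and APC-WT replicate 2 for 10. APC-KI replicate 1 was the highest for the remaining gene, Utp20. Set against the summed epithelial markers, as a ratio, the members came to 51.8%, 51.3% and 47.6% in APC-WT and to 32.3%, 31.7% and 36.5% in APC-KI tumours. The marker sum was itself higher in APC-KI tumours (10198 to 11833 CPM, against 8522 to 9620.1 CPM in APC-WT), which adds to the drop of this ratio.

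The number of calls depended on single libraries. With the 4 libraries that held no Y-linked counts, among them a single APC-WT library whose spread had to be borrowed from APC-KI, 40 of 41 changes were again negative with a median of −0.26, but 0 passed (11 at an unadjusted p under 0.05), where 0.745% of all genes were called lower. The Y-linked counts as a covariate were entered only as present or absent. The group change then again rests on APC-WT replicate 3 against the APC-KI libraries, so that this fit is no separate adjustment for sex. In it 1 gene passed, Nhp2, where 1.02% of all genes were called lower. Leaving out APC-WT replicate 1 gave 8 lower genes (4.56% of all genes), leaving out replicate 2 gave 3 (1.89%) and leaving out replicate 3 gave 14 (6.54%). Leaving out APC-KI replicate 1 gave 4 (1.53%), replicate 2 gave 5 (2.00%) and replicate 3 gave 12 (8.12%). The medians of the 41 genes in these fits lay between −0.29 and −0.23. These fits reuse the same libraries, so that their shared direction is no separate evidence. When libraries were scaled by their totals alone, 29 genes were lower (over all genes 2844 lower, or 14.9%, and 1978 higher), and when scaled to the summed epithelial markers 40 were lower (over all genes 5289, or 27.7%, and 1553, against 1459 and 2388 with TMM factors). Those scalings moved the median of all genes to −0.13 and −0.32, and the genes' medians of −0.38 and −0.57 lay 0.25 below it in each case. A change of scaling shifts all genes by nearly the same amount, so that this gap could hardly change and is no separate evidence. In bulk tumours a lower level can mean fewer cells that express a gene or less RNA in each cell, and these cannot be told apart. The part of the smooth muscle, immune and mast cell markers in the result was not tested.

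**Figure D2:**
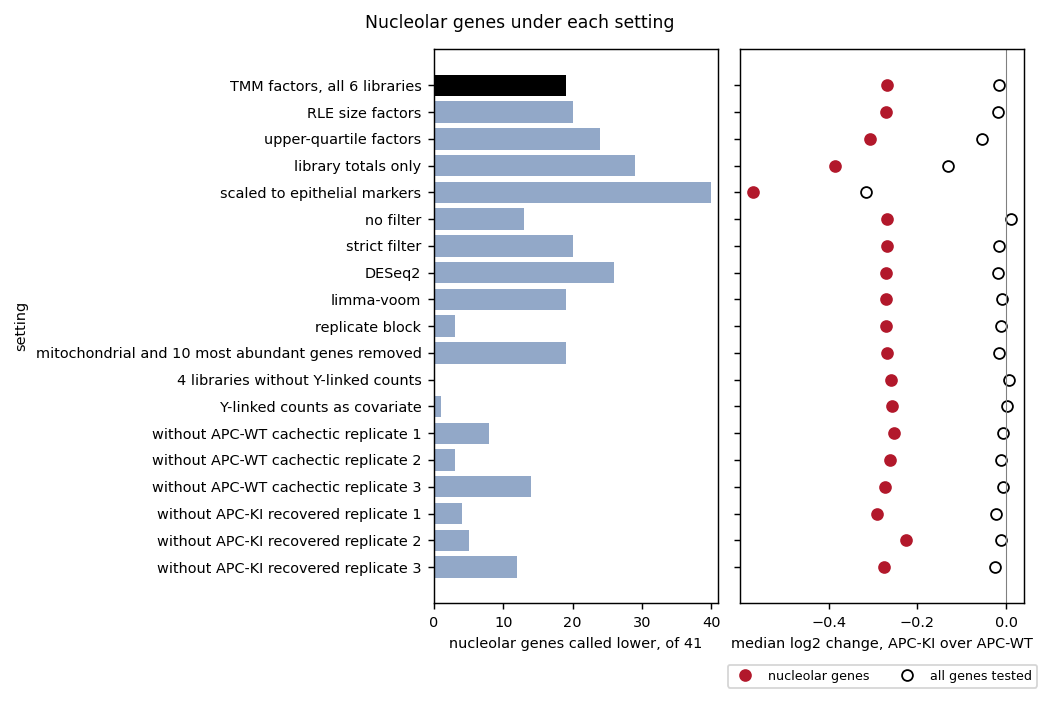
Number of the 41 nucleolar genes called lower (left, bars) and the median log2 change of those genes and of all genes tested (right, points) under each way of processing the same counts. The count ranges from 0 to 40, while the median of the nucleolar genes stays below that of all genes in every row. Other scalings shift both medians nearly alike and all rows reuse the same libraries, so that this is no separate evidence.

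A match to CACGTG, the E-box that MYC and MAX can bind, was looked for in the RefSeq promoters of the genes (GRCm38.p6, 250 bases before to 50 after the start, the motif reading the same on both strands). The set of RefSeq promoters used here covered 36 of the 41 genes, and 8 of these had a match (22.2%). Among the other ribosome biogenesis factors with a promoter 18 of 96 (18.8%) had a match, and among all 27025 genes of the set 8.09%. The TCF core CTTTGA, on either strand, was in 4 of 36 (11.1%, against 18.2% of all genes), and the palindromic ZBTB33 element in 0 of 36 (0.525% of all genes). The letters of these motifs cannot overlap each other. A match is a description of the sequence and says nothing of binding in these tumours. The matches are given because they can be set beside the changes of the same genes, with the motif in capitals and up to 12 bases on either side in the direction of transcription.
Rrn3, chr16:13780472-13780501, plus strand: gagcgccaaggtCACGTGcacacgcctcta
Rrn3, chr16:13780639-13780668, plus strand: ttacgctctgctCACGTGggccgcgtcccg
Nop2, chr6:125131811-125131840, plus strand: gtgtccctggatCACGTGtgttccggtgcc
Pes1, chr11:3963965-3963994, plus strand: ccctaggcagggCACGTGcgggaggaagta
Wdr43, chr17:71616220-71616249, plus strand: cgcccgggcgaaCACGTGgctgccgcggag
Ltv1, chr10:13193092-13193121, minus strand: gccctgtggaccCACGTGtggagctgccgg
Grwd1, chr7:45830740-45830767, minus strand: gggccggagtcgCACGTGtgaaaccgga
Utp20, chr10:88826765-88826789, minus strand: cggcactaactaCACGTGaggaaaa
Mybbp1a, chr11:72441355-72441376, plus strand: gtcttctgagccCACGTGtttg

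In Rrn3 the motifs begin 215 and 48 bases before the annotated start, and in Nop2 60 bases before it, whereas in the other 6 genes they begin within 41 bases after it. Rrn3, Pes1, Wdr43, Ltv1 and Mybbp1a were among the genes that fell, Nop2 and Grwd1 did not pass (adjusted p = 0.0527 and 0.203), and Utp20 was the gene with a positive change. Nhp2, Gar1 and Nop56, which had the smallest p values, had no match in these windows. Rrn3 is shown with the whole 250 bases before its start because it was the only gene with a pair of matches, chr16:13780449-13780698 on the plus strand.
Rrn3 upstream: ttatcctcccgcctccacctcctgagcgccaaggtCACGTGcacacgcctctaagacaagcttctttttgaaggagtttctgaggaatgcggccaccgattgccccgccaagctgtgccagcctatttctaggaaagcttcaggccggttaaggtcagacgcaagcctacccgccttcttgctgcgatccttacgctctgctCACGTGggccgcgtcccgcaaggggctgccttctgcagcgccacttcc

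Genes of RNA polymerase I transcription had a median log2 change of −0.28, and 3 of 7 fell. Polr1a encodes the largest catalytic subunit of the polymerase. It stood at 94.6, 85.7 and 82.6 CPM in APC-WT tumours, against 71.6, 66.2 and 70.7 CPM in APC-KI tumours, and the groups did not overlap. The change was 1.26-fold lower (log2 −0.33 ± 0.08, SE, edgeR adjusted p = 0.0286). Polr1b, the second subunit of the catalytic core, held 46.8, 47.0 and 42.1 CPM in APC-WT tumours, against 37.9, 36.1 and 35.0 CPM in APC-KI tumours. Its APC-KI values were also all below the APC-WT values, 1.25-fold on average (adjusted p = 0.0370). Rrn3 brings the polymerase to the ribosomal DNA promoter, and its level was 63.7, 60.7 and 56.6 CPM against 50.98, 46.9 and 50.8 CPM. It was 1.22-fold lower without overlap (adjusted p = 0.0450).

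Polr1e, a subunit that forms a heterodimer on the polymerase, was as low as these in proportion but missed the threshold. Its values were 19.4, 19.8 and 20.1 CPM in APC-WT tumours, against 16.4, 14.7 and 16.7 CPM in APC-KI tumours (log2 −0.31 ± 0.10, adjusted p = 0.0650). The groups did not overlap here either. Polr1c, which polymerases I and III share, had a log2 change of −0.14 (95% interval −0.32 to 0.03), and Ubtf, which binds and opens ribosomal DNA, one of −0.13 (95% interval −0.31 to 0.05). Tcof1 (treacle, a partner of Ubtf and the polymerase) had the largest p of this role. It stood at 68.2, 80.7 and 90.3 CPM in APC-WT tumours, against 76.2, 83.4 and 66.1 CPM in APC-KI tumours, and the values of the groups interleaved (log2 −0.08 ± 0.13, adjusted p = 0.663). The count ratio of Polr1a to Polr1c, which does not depend on library scaling, was 2.16, 2.09 and 2.05 in APC-WT and 1.91, 1.69 and 1.94 in APC-KI tumours. That pair, like the other pairs whose ratios are given, was chosen after the values were seen, so that the ratios are a description.

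The snoRNP proteins held the 3 smallest p values of the 41 genes, and 4 of 8 fell, with a median log2 change of −0.29. Nhp2, a core protein of the H/ACA particles that guide pseudouridylation, stood at 84.3, 85.8 and 88.8 CPM in APC-WT tumours, against 60.1, 57.4 and 62.7 CPM in APC-KI tumours. The gap between the groups was wider than the range within either of them. Nhp2 was 1.44-fold lower (log2 −0.52 ± 0.07, adjusted p = 0.00658) and passed in 17 of 18 alternative settings. Gar1, another core protein of H/ACA particles, held 41.8, 41.5 and 39.4 CPM in APC-WT tumours, against 29.4, 28.4 and 28.7 CPM in APC-KI tumours. The 3 APC-KI values lay close together and below all APC-WT values, at 1.42-fold lower (adjusted p = 0.00839).

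The other proteins of the H/ACA core did not pass. Dkc1, the pseudouridine synthase itself, had the largest p of this role, with 46.8, 51.1 and 55.9 CPM in APC-WT tumours, against 49.9, 47.3 and 43.4 CPM in APC-KI tumours. These values overlapped (log2 −0.13 ± 0.10, adjusted p = 0.359). Nop10, the small subunit that binds Dkc1, had a log2 change of −0.19 (95% interval −0.40 to 0.03). For each count of Dkc1 there were 1.80, 1.68 and 1.59 counts of Nhp2 in APC-WT and 1.20, 1.21 and 1.44 in APC-KI tumours. The ratio of Gar1 to Dkc1 likewise did not overlap between groups (0.803 on average in APC-WT and 0.616 in APC-KI), while that of Nop10 to Dkc1 did (0.827 and 0.795).

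Among the C/D particles, which guide ribose methylation, Nop56 was the gene that fell. Its level was 155, 165 and 164 CPM in APC-WT tumours, against 116, 118 and 122 CPM in APC-KI tumours. The groups were clearly apart, with a 1.36-fold lower level (log2 −0.45 ± 0.06, adjusted p = 0.00828), and the gene passed in 16 of 18 settings. Its paralogue Nop58 (log2 −0.28 ± 0.09, adjusted p = 0.0712) and the methyltransferase Fbl (log2 −0.21 ± 0.07, adjusted p = 0.0692) did not overlap between groups but missed the threshold. There were 1.70, 1.73 and 1.63 counts of Nop56 for each count of Fbl in APC-WT and 1.371, 1.48 and 1.44 in APC-KI tumours. Nolc1, a chaperone that shuttles both kinds of particle, stood at 126, 135 and 126 CPM in APC-WT tumours, against 109, 106 and 101 CPM in APC-KI tumours. It fell 1.23-fold (adjusted p = 0.0278), with no overlap.

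**Figure D3:**
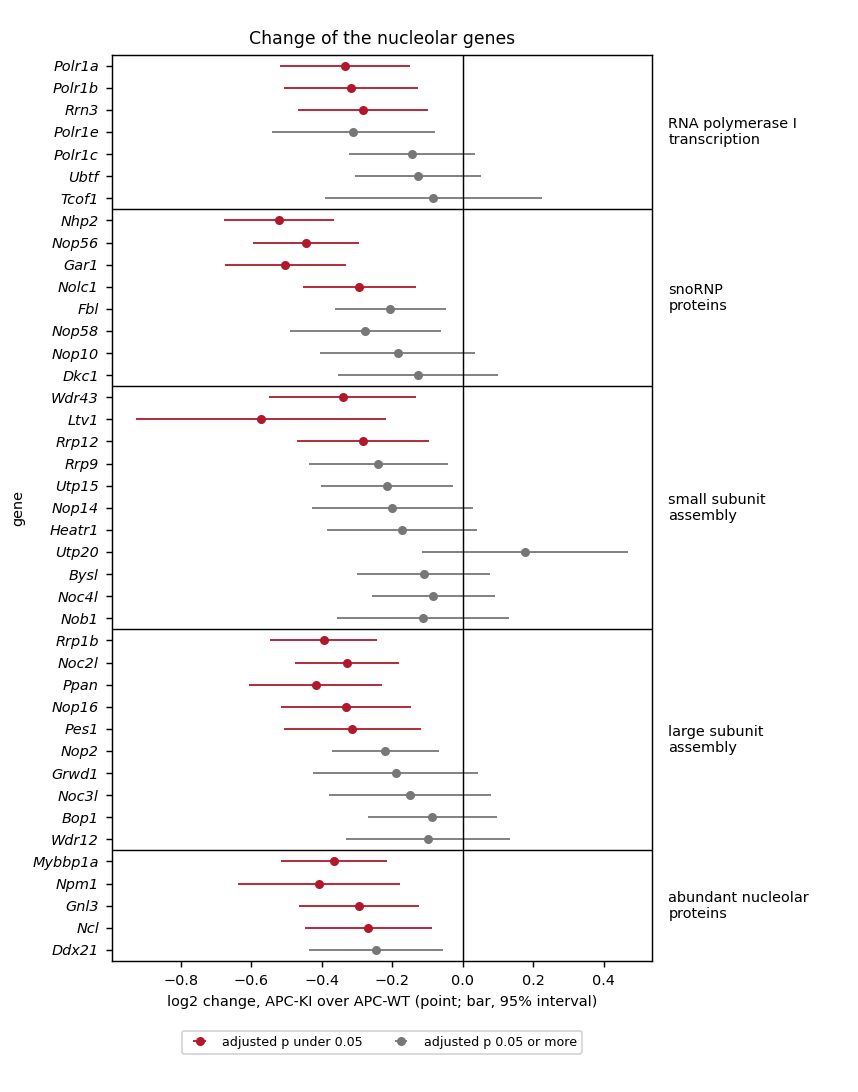
log2 change of each nucleolar gene in APC-KI over APC-WT tumours with its 95% interval, by role; genes with an adjusted p under 0.05 are red and the others grey. All points but that of Utp20 lie below 0, and Ltv1, Nhp2 and Gar1 lie lowest.

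Among the genes of small subunit assembly 3 of 11 fell, with a median log2 change of −0.20; differences in this share between roles were not tested. Wdr43 belongs to the early complex that links transcription of the precursor to its processing. It held 109, 101 and 98.6 CPM in APC-WT tumours, against 88.4, 73.5 and 81.8 CPM in APC-KI tumours, lower in every APC-KI library (1.27-fold, adjusted p = 0.0388). Ltv1, a factor of late, cytoplasmic 40S maturation, showed the largest change of all 41 genes. Its values were 98.6, 90.7 and 74.7 CPM in APC-WT tumours, against 60.8, 49.0 and 67.6 CPM in APC-KI tumours. The groups did not overlap, although APC-WT replicate 3 came near APC-KI replicate 3, at a mean change of 1.49-fold lower (log2 −0.57 ± 0.15, adjusted p = 0.0398). Rrp12, a factor of pre-40S export, stood at 35.8, 32.8 and 33.5 CPM against 27.7, 27.5 and 28.7 CPM (1.22-fold lower, adjusted p = 0.0469).

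Rrp9, which binds the U3 snoRNA, came next with 27.7, 28.9 and 30.5 CPM in APC-WT tumours, against 23.9, 24.4 and 25.4 CPM in APC-KI tumours. It did not overlap between groups, but it did not pass (log2 −0.24 ± 0.08, adjusted p = 0.0823). Nob1, the nuclease that makes the final cut of the small subunit RNA, had the largest p of this role, at 36.5, 30.1 and 32.6 CPM in APC-WT tumours, against 32.7, 28.8 and 30.1 CPM in APC-KI tumours. Its groups overlapped (log2 −0.11 ± 0.10, adjusted p = 0.450). Of the other genes Utp15, Nop14, Heatr1, Bysl and Noc4l had log2 changes of −0.22, −0.20, −0.17, −0.11 and −0.08, and none of them passed. Utp20, a large scaffold of the processome, was the only gene of the 41 with a positive change. It stood at 68.3, 83.1 and 83.2 CPM in APC-WT tumours, against 97.8, 91.0 and 76.0 CPM in APC-KI tumours. APC-KI replicates 1 and 2 were above all APC-WT tumours and replicate 3 was not, and the change did not pass (log2 0.17 ± 0.12, adjusted p = 0.335). Scaled to epithelial markers, its log2 change was −0.13.

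Of 10 genes of large subunit assembly 5 fell, with a median log2 change of −0.27. Rrp1b, a nucleolar protein of 60S assembly, was nearly constant within each group. It stood at 49.0, 49.6 and 49.2 CPM in APC-WT tumours, against 37.1, 37.7 and 37.6 CPM in APC-KI tumours (1.32-fold lower, adjusted p = 0.0112). Noc2l, part of the NOC complexes of early pre-60S particles, held 137, 134 and 138 CPM in APC-WT tumours, against 108, 104 and 112 CPM in APC-KI tumours. The spread within its groups was small beside the gap (1.26-fold lower, adjusted p = 0.0168). Ppan, another factor of large subunit assembly, was at 50.3, 53.5 and 56.4 CPM against 39.1, 42.3 and 38.6 CPM (1.34-fold lower, adjusted p = 0.0173). Nop16 was at 41.1, 41.7 and 41.7 CPM in APC-WT tumours, against 35.0, 31.1 and 32.8 CPM in APC-KI tumours. For both genes all APC-KI values were below all APC-WT values, and Nop16 was 1.26-fold lower (adjusted p = 0.0296).

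Pes1, Bop1 and Wdr12 form the PeBoW complex, which is needed to process the large subunit RNA. Pes1 was lower at 1.24-fold (log2 −0.31 ± 0.08, adjusted p = 0.0408). Bop1 had a log2 change of −0.09 (95% interval −0.27 to 0.10). Wdr12 had the largest p of this role and stood at 27.8, 30.0 and 31.3 CPM in APC-WT tumours, against 30.1, 25.4 and 27.8 CPM in APC-KI tumours. Its groups overlapped (log2 −0.10 ± 0.10, 95% interval −0.33 to 0.13, adjusted p = 0.489). The count ratio of Pes1 to Bop1 was 1.88, 1.46 and 1.56 in APC-WT and 1.39, 1.28 and 1.495 in APC-KI tumours. These ratios overlapped, so that unequal change within this complex was not separated from the spread of single tumours. Nop2, a methyltransferase of the large subunit RNA, just missed the threshold at −0.22 (adjusted p = 0.0527). Grwd1 and Noc3l did not pass at −0.19 and −0.15.

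Among the abundant nucleolar proteins 4 of 5 genes fell, with a median log2 change of −0.30, and in all 5 the groups did not overlap. Mybbp1a, a nucleolar MYB-binding protein, stood at 254, 256 and 263 CPM in APC-WT tumours, against 199.96, 193 and 206 CPM in APC-KI tumours (1.29-fold lower, adjusted p = 0.0132). Npm1 (nucleophosmin), a histone and ribosome chaperone, held 595, 674 and 738 CPM in APC-WT tumours, against 515, 481 and 517 CPM in APC-KI tumours. Its APC-WT tumours were spread more widely than its APC-KI tumours, and it was 1.33-fold lower (adjusted p = 0.0310). Processed pseudogenes of Npm1 resemble it closely, so that its count is uncertain to an extent that was not tested. Gnl3 (nucleostemin), a GTPase of growing and stem cells, was at 79.5, 83.2 and 78.1 CPM against 69.9, 63.8 and 62.5 CPM (1.23-fold lower, adjusted p = 0.0328).

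Ncl (nucleolin), which binds the precursor RNA, had 762, 749 and 757 CPM in APC-WT tumours, against 662, 584 and 636 CPM in APC-KI tumours (1.20-fold lower, adjusted p = 0.0489). The 3 APC-WT values were almost equal, and all 3 APC-KI values were below them. Ddx21, an RNA helicase, had the largest p of this role and did not pass, at 233, 237 and 223 CPM in APC-WT tumours, against 207, 178 and 199 CPM in APC-KI tumours. Its groups did not overlap (log2 −0.25 ± 0.08, adjusted p = 0.0709). Per kilobase of coding transcript Npm1 had the highest level of the 41 genes, 409.7 ± 44.1 CPM per kilobase in APC-WT tumours (SD, n = 3), and Rrp12 the lowest, 7.84 ± 0.371. In APC-KI tumours these levels were 309 ± 12.2 and 6.44 ± 0.147 CPM per kilobase.

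The rest of the ribosome biogenesis pathway was looked at through 114 further factors, of which 113 were tested. Of these 18 fell and 0 rose (60 lower and 3 higher at an unadjusted p under 0.05, DESeq2 38 and 1, limma-voom 16 and 0), a share of 15.9% lower beside the 7.63% of all genes. Their median log2 change was −0.20, and 100 of 113 were negative. In the 4 libraries that held no Y-linked counts, and with those counts as a covariate, 0 passed in edgeR (14 and 21 at an unadjusted p under 0.05). The number was 4 without APC-WT replicate 1 (4.56% of all genes lower) and 4 without APC-KI replicate 1 (1.53%). Without APC-WT replicate 2 (1.89%) and without APC-KI replicate 2 (2.00%) it was 0 (33 and 24 at an unadjusted p under 0.05). Without APC-WT replicate 3 it was 12 (6.54%), and without APC-KI replicate 3 it was 16 (8.12%).

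Of 38 other factors of small subunit assembly 7 fell and 0 rose (18.4% lower, beside 7.63% of all genes, median −0.20). The lowest p values were those of the kinase Riok2, Utp18 and Aatf, at 1.33-fold, 1.32-fold and 1.27-fold lower. Of 44 other factors of large subunit assembly 9 fell and 0 rose (20.5% lower, median −0.20). The GTPases Gtpbp4 and Gnl2 were 1.31-fold and 1.32-fold lower, and Rsl1d1 1.27-fold. Surf6 and Eif6 went the other way without overlap, at log2 changes of 0.33 and 0.27, and did not pass. Of 12 tested genes of the exosome and its partners 1 fell (8.33%), near the share of all genes. It was Xrn2, a 5′ to 3′ exonuclease, at 1.366-fold lower (edgeR adjusted p = 0.0206). The exosome subunits Exosc5 and Exosc1 did not pass at log2 changes of −0.39 and −0.28. Of 9 further polymerase I factors 1 fell (11.1%), Taf1b, a subunit of the selectivity factor (log2 −0.45, edgeR adjusted p = 0.0444). Taf1d and Cd3eap did not pass at −0.25 and −0.28. The change was positive for 4 of the 9. Among these Polr1d (0.18) and Ttf1 (0.19) lay higher without overlap but did not pass. The assembly factors of snoRNPs held 0 calls of 10 (2 lower and 0 higher at an unadjusted p under 0.05, DESeq2 1 lower, limma-voom 0), with Znhit6, Ruvbl2 and Rpap3 at −0.30, −0.21 and −0.26.

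**Figure D4:**
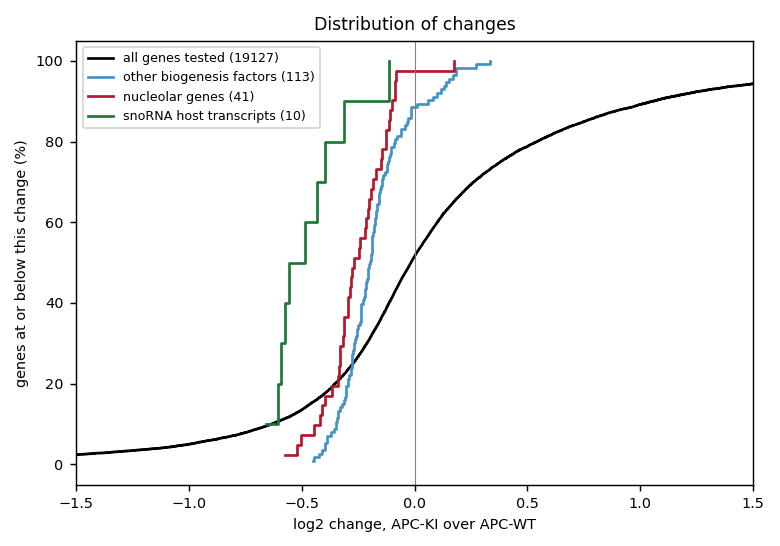
Cumulative share of genes at or below a given log2 change (APC-KI over APC-WT) for the 41 nucleolar genes, 113 other biogenesis factors, 10 snoRNA host transcripts and all 19127 genes tested; the axis is limited to the range shown, beyond which the curve of all genes goes on. The medians are −0.27, −0.20, −0.52 and −0.02.

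Host transcripts carry snoRNAs in their introns. Among 10 of them without a known protein product 6 fell and 0 rose (DESeq2 7 and 0, limma-voom 6 and 0), with a median log2 change of −0.52. The share lower was 60%, beside 7.63% of all genes. Gas5 stood at 197, 176 and 169 CPM in APC-WT tumours, against 113, 111 and 120.3 CPM in APC-KI tumours, 1.58-fold lower (adjusted p = 0.00639). Snhg1 held 55.3, 53.1 and 50.9 CPM in APC-WT tumours, against 37.0, 35.1 and 36.2 CPM in APC-KI tumours (1.47-fold lower, adjusted p = 0.00661). Snhg5 was 1.49-fold lower (adjusted p = 0.00781). In each of these 3 the APC-KI values lay below all APC-WT values. In the libraries that held no Y-linked counts 0 of the 10 passed (5 at an unadjusted p under 0.05), at −0.57 for Gas5 (adjusted p = 0.0732) and −0.50 for Snhg1 (adjusted p = 0.102). In GENCODE M21 the exons of 5 of the 41 nucleolar genes (Ncl, Nop56, Nop58, Gnl3 and Ppan) overlap genes of small RNAs on the same strand. Further, 17 of the 41 share exon sequence with a gene on the opposite strand, among them Nhp2, Nop56, Mybbp1a, Noc2l and Rrp1b. The strand setting of the counting is not given in the sources used here, so that reads of such opposite genes may be included.

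MYC and its partners were read from a list of 13 genes, of which 2 fell (Myc and Mxi1) and 3 rose (Mxd1, Mlx and Mlxip). These are shares of 15.4% lower and 23.1% higher, beside 7.63% and 12.5% of all genes. Myc stood at 146, 119 and 115 CPM in APC-WT tumours, against 86.0, 82.1 and 80.5 CPM in APC-KI tumours, with no overlap. It was 1.53-fold lower (log2 −0.61 ± 0.10, adjusted p = 0.0130). Mxd1, which pairs with MAX in place of MYC and represses its targets, stood at 119, 147 and 155 CPM in APC-WT tumours, against 421, 409 and 271 CPM in APC-KI tumours. It was 2.62-fold higher (edgeR adjusted p = 0.00785), and APC-KI replicate 3 was the lowest of its group. The related genes Mxi1, Mnt, Mxd3 and Mxd4 went the other way, with log2 changes of −0.32, −0.31, −0.44 and −0.09. Of these only Mxi1 passed (edgeR adjusted p = 0.0387). Mlx, the partner of a related set of glucose-responsive factors, held 49.4, 56.0 and 51.4 CPM in APC-WT tumours, against 95.4, 88.2 and 74.2 CPM in APC-KI tumours (1.64-fold higher, adjusted p = 0.00941).

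Max itself did not pass, with 113, 96.4 and 89.5 CPM in APC-WT tumours, against 131, 123 and 109 CPM in APC-KI tumours (log2 0.28 ± 0.11, adjusted p = 0.121). Its APC-WT replicate 1 was above the lowest APC-KI tumour, and its change was −0.04 when scaled to epithelial markers. Mycl was at 89.1, 85.5 and 64.3 CPM against 57.7, 53.6 and 74.7 CPM (log2 −0.36 ± 0.17, adjusted p = 0.166), with overlap. Mycn was rare, at 2.25, 7.74 and 4.84 CPM in APC-WT tumours, against 8.43, 6.04 and 13.2 CPM in APC-KI tumours, and did not pass (log2 0.90 ± 0.48, adjusted p = 0.218). In the libraries that held no Y-linked counts Myc had a log2 change of −0.47 (adjusted p = 0.0951), Mxd1 of 1.24 (adjusted p = 0.1199) and Mlx of 0.74 (adjusted p = 0.1003). Their directions were those of the fit over all 6 libraries, which holds the same libraries, so that this is no separate evidence. Without APC-KI replicate 2 Myc had a log2 change of −0.60 and did not pass (adjusted p = 0.0518).

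**Figure D5:**
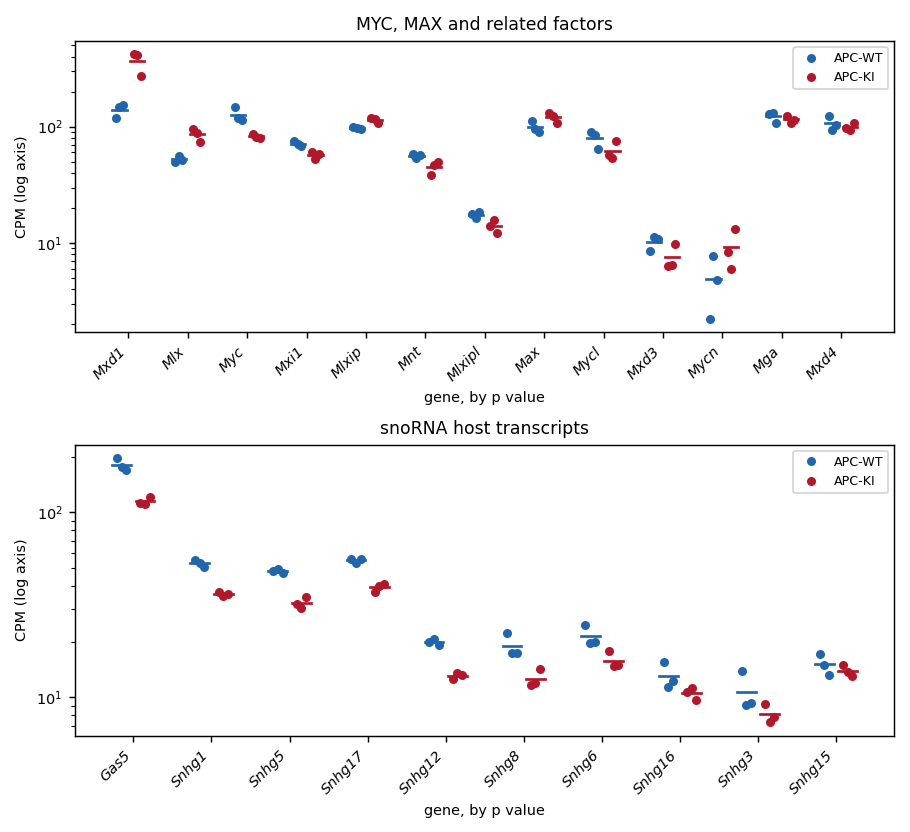
CPM on a log axis of 13 genes of the MYC network (top) and of 10 snoRNA host transcripts (bottom) in each library; points are single tumours, blue for APC-WT and red for APC-KI, and lines are group means (n = 3). Myc and the host transcripts on the left lie lower in APC-KI tumours, and Mxd1 and Mlx lie higher.

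Markers of cycling cells were read in the same libraries. Of 12 such markers 1 fell and 0 rose, a share of 8.33% lower beside the 7.63% of all genes (3 lower and 0 higher at an unadjusted p under 0.05, DESeq2 1 and 0, limma-voom 1 and 0). The log2 change was negative for 9 of the 12, as for most of the nucleolar genes, with a median of −0.18. Mcm2, a subunit of the replication helicase, was the marker that fell, at 92.3, 114 and 121 CPM in APC-WT tumours, against 79.9, 84.0 and 75.7 CPM in APC-KI tumours (1.365-fold lower, adjusted p = 0.0349). The replication clamp gene Pcna did not overlap between groups either, but did not pass (log2 −0.25 ± 0.10, adjusted p = 0.110). Mcm5 did not pass at −0.33 (adjusted p = 0.121). The other 9 markers had log2 changes between −0.33 (Mcm3) and 0.07 (Mki67), and none of them passed. The markers summed to 1415, 1813 and 1910.5 CPM in APC-WT tumours, against 1619.6, 1606 and 1457 CPM in APC-KI tumours. APC-WT replicates 2 and 3 lay above every APC-KI sum and APC-WT replicate 1 lay below every one. The part of cycling cells in the changes of the nucleolar genes was not tested.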

How the data were processed

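RNA of 6 mouse colon tumours was sequenced from libraries of a TruSeq Stranded mRNA kit, per the labels' protocols. The submitters' processing notes name STAR, DESeq2 1.37.6, cutadapt 2.5, Trim Galore 0.6.4 and the builds GRCm38 and mm10. Which program counted reads, with which strand setting and annotation release, is not given in the sources used here. Whole-number counts per Ensembl gene were what the authors deposited, per the file headers and values. Symbols came from GENCODE M21 for 52093 of 53700 rows. Among the 53700 rows only 35 identifier versions equalled those of M21, which does not show that this release was used for the counts. Snhg16 was found under its RefSeq synonym.

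The test was edgeR 4.0.16 in R 4.3.3, after filterByExpr and TMM scaling (robust glmQLFit, glmQLFTest, group as the sole term). A log2 change compares APC-KI with APC-WT, SE is the log2 change over the root of F, and Benjamini-Hochberg adjustment ran over 19127 genes (threshold 0.05). This procedure was also run on simulated data, with set changes larger than most of the falls called here. That run is no support for those calls. CPM are TMM-scaled counts per 1000000. Levels per kilobase used the coding transcript with the longest reading frame in M21. Alternatives used DESeq2 1.42.0, limma 3.58.1 (voom), other scalings and filters, fewer libraries and a block.

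Genes, lists and tests were chosen with earlier results of these data known. Within each role the 4 genes with the smallest p and the 1 with the largest are given per library. From each further list the 3 with the smallest p are named (of the cycling markers also the ends of the range), with Myc, Mycn, Mycl and Max. Further genes of some lists are named, among them ones that went the other way. No libraries of a group agreed within sampling noise (chi-square per gene 36.4 to 104), so none was merged as a duplicate. Each was taken as 1 tumour of 1 mouse, which the chi-square does not show; if that does not hold, p values measure only the spread between these samples.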

Additional observations from a re-analysis of the deposited data

How the results depend on the processing

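Counts of genes at an adjusted p under 0.05 moved more than directions. With library totals alone as scaling 29 of the 41 nucleolar genes, 65 of the other biogenesis factors, 4 genes of the MYC network, 7 of RNA polymerase III and 2844 of all genes were lower. Scaled to epithelial markers, 40 nucleolar genes, 95 other factors, 4 of the MYC network, 10 MYC-linked genes, 9 of RNA polymerase III and 5289 of all genes were lower, and 1553 of all genes were higher. Upper-quartile factors gave 28 other factors lower. Without a filter 11 other factors, 1 gene of the MYC network and 1 of RNA polymerase III were lower. DESeq2 called 2388 of all genes, 38 other factors and 6 of RNA polymerase III lower, and 1 other factor and 1 MYC-linked gene higher. Over the 4 libraries without Y-linked counts edgeR called 152 of all genes lower and 178 higher and 0 of these lists, with unadjusted p under 0.05 for 11 nucleolar genes, 14 other factors, 5 snoRNA hosts, 1 lower and 3 higher of the MYC network, 4 MYC-linked genes and 2 of RNA polymerase III. With Y-linked counts as a covariate 195 of all genes were lower, 220 higher, 1 nucleolar gene was lower and 0 of the other lists named here passed (unadjusted p under 0.05 for 21 other factors, 5 hosts, 1 lower and 4 higher of the MYC network, 4 MYC-linked genes and 4 of RNA polymerase III). Fewer samples or residual degrees of freedom enter these fits. In both of them the group change rests on APC-WT replicate 3 alone on the APC-WT side, because the covariate was entered as present or absent. The cause of the other shifts was not tested.

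Leaving out 1 library at a time gave 3 to 14 nucleolar genes lower and 0 higher, 300 to 1595 of all genes lower and 788 to 2542 higher, 0 to 16 other factors lower and 0 to 2 higher, 4 to 6 hosts lower, 0 to 2 genes of the MYC network lower and 2 to 3 higher, 1 to 4 MYC-linked genes lower and 0 to 1 higher, and 0 to 4 of RNA polymerase III lower. Tcof1 ranged from −0.187 without APC-WT replicate 1 to 0.0138, a reversal, without APC-WT replicate 3. Scaled to epithelial markers, the log2 changes of Utp20 (−0.13), Max (−0.0352) and Sesn1 (−0.0565) were reversed.

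The replicate numbers are shared by the groups but do not pair the tumours: deviations of same-numbered tumours correlated at 0.03, −0.07 and −0.18, and 1 of 6 tumours correlated best with its own number. With the replicate block 3 nucleolar genes (Nop56, Gar1 and Nhp2), 465 of all genes, 0 other factors (34 at an unadjusted p under 0.05), 1 gene of the MYC network, 2 MYC-linked genes and 0 of RNA polymerase III (6 unadjusted) were lower, and 1195 of all genes were higher. The lowest count of a nucleolar gene in any library was 771; the effect of depth or of more tumours on the calls was not tested.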

Other observations

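Outside the nucleolus, 16 genes often linked to MYC were read from a list. Of these 4 fell and 0 rose (5 lower and 1 higher at an unadjusted p under 0.05, DESeq2 4 and 1, limma-voom 4 and 0), with a median log2 change of −0.10. The share lower was 25%, beside 7.63% of all genes. Paics and Shmt1, enzymes of purine and one-carbon synthesis, were 1.38-fold and 1.38-fold lower (edgeR adjusted p = 0.0108 and 0.0110). The cyclin-dependent kinase gene Cdk4 stood at 285, 303 and 323 CPM in APC-WT tumours, against 205, 204 and 241 CPM in APC-KI tumours (1.40-fold lower, adjusted p = 0.0180), without overlap. Gart, another enzyme of purine synthesis, was the remaining gene that fell. The log2 change was positive for 4 of the 16 (Tfrc, Odc1, Srm and Cad). Tfrc had a log2 change of 0.51 and did not pass (edgeR adjusted p = 0.0770), with all APC-KI values above all APC-WT values. The 16 genes summed to 2323 to 2532 CPM in APC-WT and to 2215 to 2498.5 CPM in APC-KI tumours, with overlap. In the libraries that held no Y-linked counts 0 of the 16 passed (4 at an unadjusted p under 0.05), 1 was lower without APC-WT replicate 2, and 2 were lower without APC-KI replicate 1 or 2.

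RNA polymerase III makes the 5S RNA of the ribosome and transfer RNAs. Of 12 of its subunits and regulators 2 fell, the subunits Polr3e (1.31-fold lower, adjusted p = 0.0260) and Polr3a (1.25-fold lower, adjusted p = 0.0295). The share lower was 16.7%, beside 7.63% of all genes. Polr3b just missed the threshold (log2 −0.33, adjusted p = 0.0510). Without APC-WT replicate 1 or 2, or APC-KI replicate 1 or 2, 0 of the 12 were lower in edgeR (4, 6, 4 and 3 at an unadjusted p under 0.05), where DESeq2 over all libraries had 6. All 12 log2 changes were negative, with a median of −0.25, where 51.5% of all genes had a negative change. Targets of p53, which disturbed ribosome assembly is known to activate, had a median of 0.14. Of 12 such genes Ccng1 rose (1.57-fold, edgeR adjusted p = 0.0293), a share of 8.33% higher, which is below the 12.5% of all genes. In edgeR, DESeq2 or limma-voom 0 fell (0 lower at an unadjusted p under 0.05). The cell cycle inhibitor gene Cdkn1a did not pass, at 208, 197 and 149.6 CPM in APC-WT tumours, against 160.1, 151 and 127 CPM in APC-KI tumours (log2 −0.34 ± 0.15, adjusted p = 0.138). Sesn1 did not pass at 0.24, or −0.06 when scaled to epithelial markers. Without APC-WT replicate 2 or 3, or APC-KI replicate 1 or 2, Ccng1 did not pass (adjusted p 0.103, 0.0579, 0.0998 and 0.0953).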
